A study of Homo sapiens with 4 samples.

Results

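Among the sites where Flag-tagged FLI1 was detected after IFN-γ, 2438 distal peaks had no counterpart in the control list and carried an AP-1 motif within 100 bp of the summit. HK1 is an established nasopharyngeal carcinoma cell line. Both groups overexpressed Flag-FLI1, and they were given either PBS (the control) or IFN-γ over 24 h. The immunoprecipitation used anti-Flag, so the values belong to the tagged, overexpressed protein and nothing here describes the untagged FLI1 of these cells. With 1 ChIP library a condition the treatment has no replicates, and all values below are descriptions of these 2 libraries.

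The sites were chosen by the readout in 5 steps. The IFN-γ list held 39654 peaks and the control list held 30819. Of the IFN-γ peaks, 15451 overlapped no control peak by even 1 bp, which was 39% of the list. Of these, 11140 (72.1%) were distal, lying farther than 3 kb from the transcription start site (TSS) of every annotated transcript. Runs of 4 or more tandem GGAA units within 100 bp of the summit were set aside, which left 9307. Of those, 2438 held the AP-1 heptamer, TGACTCA or TGAGTCA, within 100 bp of the summit, a share of 26.2% (25.3 to 27.1). Ranges in parentheses are 95% confidence intervals, exact binomial for shares and from order statistics for medians. They cover counting error only. The 2438 sites made up 6.15% of all IFN-γ peaks and are called IFN-γ-only AP-1 sites here, where IFN-γ-only means absent from the control list and not shown to be unbound in the control.

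AP-1 is a family of dimers of JUN, FOS and ATF proteins that bind the heptamer, largely at enhancers, and that respond to growth factor, stress and cytokine signals. FLI1 belongs to the ETS family, whose members bind DNA around the core GGAA, and ETS and AP-1 proteins are known to bind side by side at composite elements. The interferon regulatory factors (IRFs), which take part in the response to IFN-γ, read other motifs.

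The DNA of the strongest sites is shown to place the heptamer against the summit. Each window is read from GRCh38 on the plus strand, spans at least 40 bases either side of the summit, and is named by the nearest protein-coding gene. Capitals mark the heptamer and, where a GGAA core lies 1 base before a heptamer on the same strand, that core as well.
BCAT1, chr12:24719591-24719672, plus strand: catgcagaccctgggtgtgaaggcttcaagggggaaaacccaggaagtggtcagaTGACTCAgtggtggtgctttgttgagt
AP1S3, chr2:223699647-223699727, plus strand: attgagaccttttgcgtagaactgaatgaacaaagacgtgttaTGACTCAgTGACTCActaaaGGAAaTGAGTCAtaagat
KCNG1, chr20:51033818-51033946, plus strand: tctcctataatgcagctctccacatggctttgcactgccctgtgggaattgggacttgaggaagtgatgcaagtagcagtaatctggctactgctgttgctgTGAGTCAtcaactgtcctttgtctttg
ARHGAP15, chr2:143083837-143083917, plus strand: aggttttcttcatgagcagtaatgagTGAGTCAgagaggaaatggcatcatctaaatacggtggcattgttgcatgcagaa
IKZF2, chr2:212843976-212844056, plus strand: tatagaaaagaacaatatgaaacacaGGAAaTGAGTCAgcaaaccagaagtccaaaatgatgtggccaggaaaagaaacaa
NETO1, chr18:73102107-73102187, plus strand: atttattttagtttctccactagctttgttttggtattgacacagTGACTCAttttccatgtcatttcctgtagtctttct

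The next windows show that arrangement, called the composite below, at strong sites that carry it beside those above. They are read on the strand that carries GGAA, with the same capitals.
MOGAT1, chr2:222738940-222738981, minus strand: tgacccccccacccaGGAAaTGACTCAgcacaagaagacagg
SH3RF1, chr4:169225626-169225667, plus strand: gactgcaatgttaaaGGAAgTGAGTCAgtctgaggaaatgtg
FRMD4A, chr10:14244858-14244899, minus strand: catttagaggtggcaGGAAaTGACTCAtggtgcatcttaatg
CMPK2, chr2:6826635-6826676, plus strand: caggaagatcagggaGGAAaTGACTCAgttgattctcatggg

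The strongest site by −log10 p (110) lay 110.5 kb from the TSS of BCAT1, a branched-chain amino acid transaminase gene, in an intron of a non-coding gene. At its summit 93 fragments were piled up over a background of 2.48, a fold enrichment of 27, and it ranked 1403 among all IFN-γ peaks. Its nearest heptamer was centred 18 bp from the summit, and the window above also holds an extended ETS site. The site with the highest fold, 28.7, lay in an intron of AP1S3, 70.5 kb from its TSS. AP1S3 encodes a clathrin adaptor subunit, which shares only its name with the transcription factor. It held 3 heptamers, the nearest 6 bp from the summit, with 81 fragments over 1.86. The site near KCNG1, a potassium channel subunit gene, had the highest pileup, 122 fragments, but over a background of 7.44, so its fold was 14.6, and its heptamer lay 65 bp from the summit.

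The other 7 of the 10 strongest sites had folds from 19.0 to 27.2 and pileups from 67 to 84 fragments. The site 7.18 kb from ARHGAP15, a GTPase-activating protein gene, and the site 171 kb from IKZF2, which encodes the zinc finger factor Helios, had the same values, a fold of 23 and 79 fragments over 2.48. The site near NETO1, a glutamate receptor auxiliary subunit gene, lay 234 kb from its TSS and 615 kb from the nearest control peak. The remainder lay nearest to NHLH2, a helix-loop-helix factor gene, MRPS2, a mitochondrial ribosomal protein gene, MOGAT1, an acyltransferase gene, and OSBPL6, an oxysterol-binding protein relative. The heptamer lay within 17 bp of the summit at 6 of these 7 sites and at 35 bp in OSBPL6. Nearest genes are names for positions and were not measured as targets.

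As a class the sites were weak within the IFN-γ list. The median fold was 5.55 (5.50 to 5.74), against 6.57 for all IFN-γ peaks and 8.32 (8.05 to 8.66) for the 2334 distal AP-1 peaks that overlapped a control peak. The 6869 IFN-γ-only distal peaks without the heptamer were weaker still, with a median fold of 5.05 (4.98 to 5.12). Median pileups followed the same order, at 18 fragments in the IFN-γ-only AP-1 sites, 15 without the heptamer, 22 over all peaks and 31 in the shared AP-1 peaks. A fold of at least 10 was reached by 246 sites (10.1%), against 25.8% of all IFN-γ peaks, 39.5% of the shared AP-1 peaks and 5.79% of the IFN-γ-only distal peaks without the heptamer. Only 24 sites (0.984%) ranked in the top 10% of the list and 67.2% ranked below its median. Strength in the IFN-γ library belongs to the contrast that chose the sites, and nothing is read from it beyond this description.

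**Figure D1:**
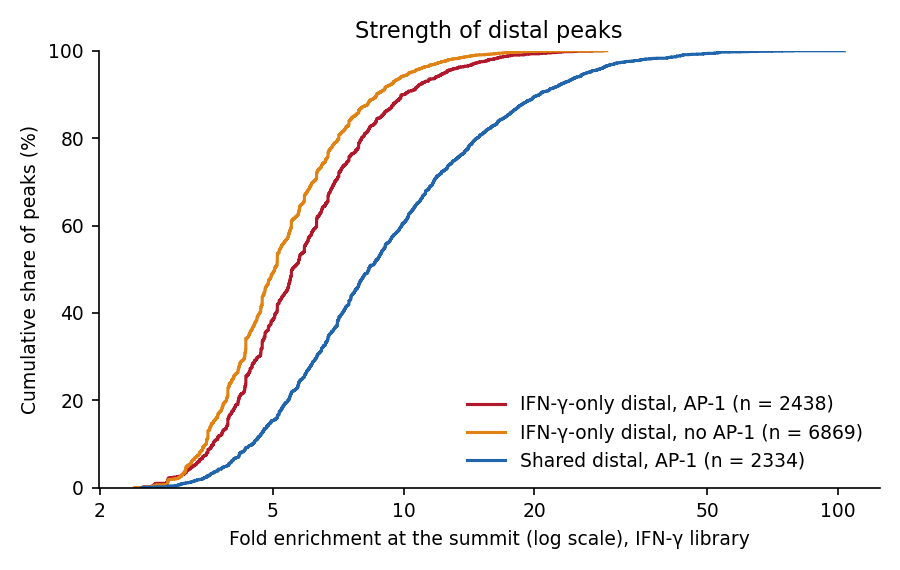
Cumulative share of distal peaks (vertical axis, percent) by fold enrichment at the summit in the IFN-γ library (horizontal axis, log scale), with 1 line for each class and its number of peaks. The IFN-γ-only AP-1 sites, with a median of 5.55, lie between the IFN-γ-only peaks without the heptamer (5.05) and the shared AP-1 peaks (8.32).

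The sites lay in the same kinds of places as the other distal classes. Of the 2438 sites, 41.6% lay in an intron of a coding gene, 14.2% in an intron of a non-coding gene, 41.3% between genes and 2.95% in an exon. The shared AP-1 peaks gave 41.3%, 13.9%, 41.8% and 3.04%. The median distance to a TSS was 16.5 kb (15.6 to 17.3), against 13.9 kb (13.2 to 14.8) in the shared AP-1 peaks and 14.8 kb (14.4 to 15.4) in the IFN-γ-only distal peaks without the heptamer. Peaks were narrower than the shared ones, with median widths of 313 and 463 bp. Mean GC content was 44.1%, against 48.1% in the shared AP-1 peaks and 44.8% in the IFN-γ-only distal peaks without the heptamer.

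The depth of the libraries bears on what absence from the control list means. The lists give no read totals, so fragments and local background at every summit were solved from the deposited fold and −log10 p. The lowest background was 1.54 fragments in the IFN-γ library and 1.06 in the control library, and their ratio of 1.46 was taken as the relative depth. At each site, the pileup that a control peak would have needed to reach the lowest −log10 p of the control list, 3.52, was then computed, and its median was 6 fragments. Scaled to the control depth, the IFN-γ pileup was above that limit at 2376 sites (97.5%), and at least 2 times the limit at 1115 (45.7%). The median was 1.92 times (1.91 to 1.95). With a lower Poisson bound in place of the IFN-γ pileup, 1428 sites (58.6%, 56.6 to 60.5) were above the limit. All these values use pileups that the rule itself selected. They leave out the sampling error of the control library, and all but the last leave out that of the IFN-γ library. They therefore do not separate sites bound in both conditions from the rest. The lists stop at a stricter −log10 p than the stated calling cutoff, for a reason not given in the sources used here, and the limit is taken from the list. At shared AP-1 distal peaks, where both libraries can be read, the scaled IFN-γ pileup was a median of 1.29 times (1.27 to 1.32) the control pileup, against 1.12 times (1.11 to 1.14) at shared distal peaks without the heptamer. The control peak nearest to a site lay a median of 25.6 kb away, and 109 sites (4.47%) had a control peak within 1 kb.

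Some sites lay close to the limits of the rule. A peak by DIAPH1 at 2997 bp from a TSS was left out. The heptamer farthest from its summit, by ROR1, was centred 97 bp away, and a peak by NEDD4 with a heptamer at 98 bp was left out. A peak by KLF4 that overlapped a control peak by 1 bp was counted as shared. The weakest site, by ANXA1, had a −log10 p of 3.50 and a fold of 2.64. There were 113 sites with the heptamer in the last 10 bp inside the limit of the motif window and 102 peaks left out with it in the first 10 bp beyond.

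Pooled over all ranks, the heptamer was slightly more common in shared than in IFN-γ-only distal peaks and least common in control-only ones. It lay within 100 bp of the summit in 28.6% (27.6 to 29.6) of the shared distal peaks outside GGAA runs, in 26.2% of the IFN-γ-only ones and in 18.6% (17.3 to 20) of the 3260 control-only ones. At promoters the shares were 19.1% of the IFN-γ-only peaks and 8.66% of the shared peaks, and 17.2% over all IFN-γ peaks. In windows of the same length placed 1 kb either side of the IFN-γ-only AP-1 sites, 3.84% (3.31 to 4.41) held a heptamer. The share was higher among stronger peaks. Of the IFN-γ-only distal peaks, the heptamer was held by 24 of 49 (49.0%, 34.4 to 63.7) in the top 10% of all IFN-γ peaks, then by 38.0%, 32.1% and 27.7% in the ranks down to 75%, and by 20.6% (19.3 to 21.9) in the lowest 25%. The shared distal peaks gave 36%, 30.7%, 29.6%, 26.1% and 20.1% over the same ranks. At each of these ranks the share was higher in the IFN-γ-only than in the shared distal peaks, the reverse of the pooled order. The intervals were apart only in the ranks from 10 to 25%, at 38.0% (33.6 to 42.6) and 30.7% (28.5 to 32.9). The control-only peaks are not in this ranking.

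Within its window the heptamer lay toward the summit, which the rule did not ask for. The centre of the nearest heptamer was a median of 32 bp (30 to 33) from the summit and within 25 bp of it at 1030 sites, or 42.2% (40.3 to 44.2). A single heptamer spread evenly over the window would lie that close in 26.2% of cases. The shared AP-1 peaks were alike in this, with a median of 33 bp (31 to 34) and 40.8% (38.8 to 42.9) within 25 bp. The ETS motif also lay near the summit. A hexamer of the core with A or C before it and A or G after it, on either strand, was present at 2077 sites (85.2%), with a median distance of 17.5 bp (15.5 to 18.5) and 64.4% within 25 bp. The hexamer is a commoner word than the heptamer and can occur several times in a window, which alone brings its nearest copy closer, so the distances of the motifs are not compared. Sites with the heptamer within 25 bp had a median fold of 6.16 (6.0 to 6.31), and those with it farther out 5.29 (5.13 to 5.44). These shares move with the window searched, since a narrower window holds fewer heptamers and only near ones. Within 50 bp of the summit, 16.8% of the IFN-γ-only distal peaks held a heptamer and 63.1% of the sites so chosen had it within 25 bp.

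Most sites held 1 heptamer. There were 2246 with 1, 173 with 2, 14 with 3, 3 with 4 and 2 with 5, which gave 2656 heptamers. The bases around it were uneven too. The heptamer was preceded by A or G and followed by C or T in 39.9% (38.1 to 41.8) of cases, against 35.6% (33.8 to 37.5) in the shared AP-1 peaks and 27.7% (25.3 to 30.2) of the heptamers 1 kb away from distal summits.

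The place of the ETS core beside the heptamer was counted over 70 arrangements, each a number of bases between them with GGAA before or after the heptamer on the strand that carries GGAA. The composite, GGAA then any base then the heptamer as in the windows above, stood out in this count. It was found at 269 of 2656 heptamers, or 10.1% (9.01 to 11.3). The other arrangements had a median of 1.84% and a highest value of 3.39%, with the core 11 bases before the heptamer. In heptamers 1 kb away from distal summits, 16 of 1320 (1.21%, 0.694 to 1.96) were composites. The shared AP-1 peaks had 252 of 2583 (9.76%, 8.64 to 11), so the composite was as common there within counting error. The base between core and heptamer was A in 136, G in 89, C in 43 and T in 1 of the 269, and the heptamer was TGACTCA in 161 and TGAGTCA in 108. The counts for C and for TGACTCA include 1 repeated context, the second of those listed further below, which was found at 22 sites.

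**Figure D2:**
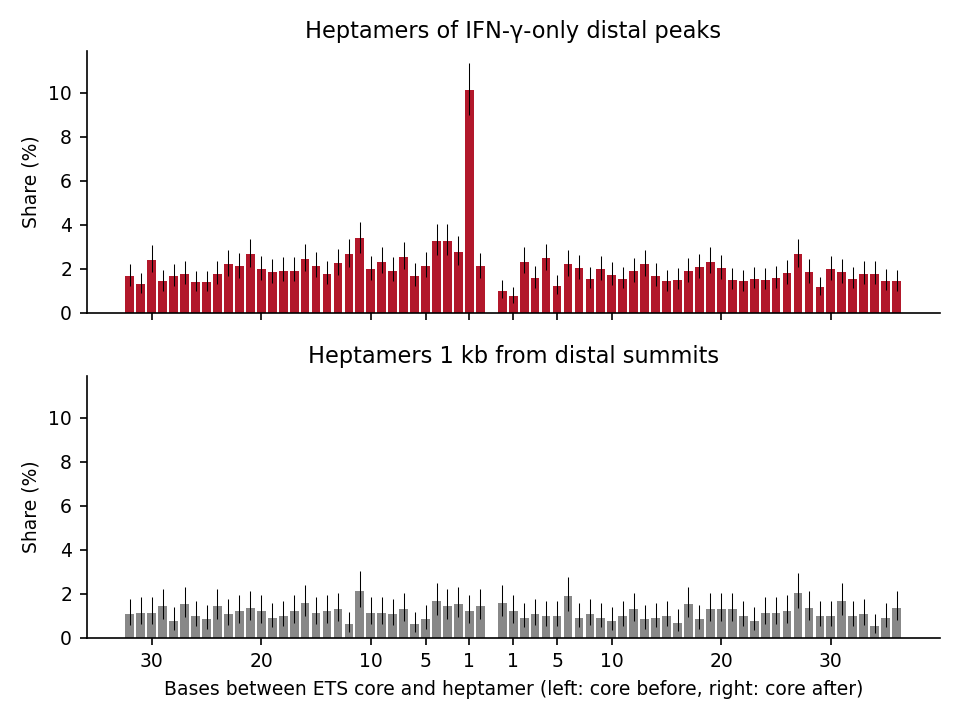
Share of AP-1 heptamers (vertical axes, percent) with a GGAA core at each number of bases before it (left) or after it (right), for the 2656 heptamers of the IFN-γ-only AP-1 sites (top) and 1320 heptamers 1 kb from distal summits (bottom), with 95% exact binomial intervals as lines. The core 1 base before the heptamer stands at 10.1% in the upper panel and 1.21% in the lower one.

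The 268 sites with a composite were stronger than the rest. Their median fold was 6.56 (6.13 to 6.86) against 5.49 (5.42 to 5.55), and 19.4% of them reached a fold of 10 against 8.94%. Their heptamer lay a median of 15 bp (11 to 17) from the summit, against 35 bp (33 to 37). Sites at the other end held no ETS hexamer within 100 bp of the summit. There were 361 of these (14.8%), with a median fold of 4.73 (4.40 to 4.89), and only 41 sites (1.68%) held no GGAA at all. The ETS octamer, C then A or C then GGAAGT, was present at 270 sites, or 11.1% (9.86 to 12.4), with a median fold of 6.54 (5.91 to 6.89). A composite with G between core and heptamer is also an octamer where CA or CC precedes the core, so these groups overlap.

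The same arrangement was then set against all heptamers of the assembled genome. Only the denominator is new here, since the heptamers of the sites are the ones counted above. GRCh38 held 462326 heptamers, of which 1.60% lay within 100 bp of an IFN-γ summit and 0.574% in an IFN-γ-only AP-1 site. Of the 5713 composites, 714 (12.5%, 11.7 to 13.4) lay at an IFN-γ summit and 269 (4.71%, 4.17 to 5.29) in an IFN-γ-only AP-1 site. The other 41 arrangements with the core up to 20 bases away had 1.15% to 4.30% of their genomic sites at an IFN-γ summit and 0.415% to 1.55% in an IFN-γ-only AP-1 site. Heptamers with no core within 20 bases were at an IFN-γ summit in 0.868% of cases. The remaining composites of the genome had no IFN-γ summit within 100 bp. Chromatin accessibility is not analysed here.

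**Figure D3:**
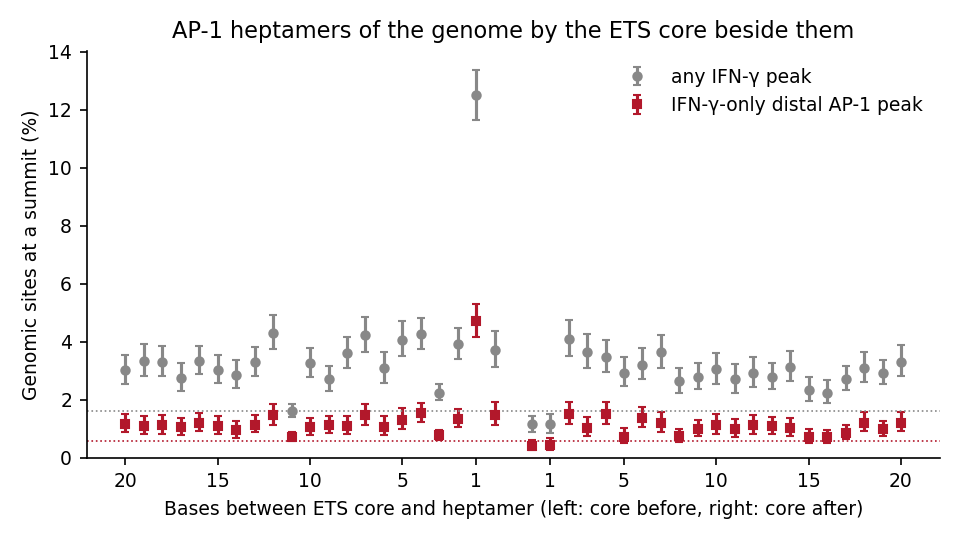
Share of the AP-1 heptamers of the genome that lie within 100 bp of a summit (vertical axis, percent) by the number of bases to a GGAA core before (left) or after (right) the heptamer, for any IFN-γ peak and for the IFN-γ-only AP-1 sites, with 95% exact binomial intervals as bars and the share over all heptamers as dotted lines. The core 1 base before the heptamer stands at 12.5% and 4.71%, and the other arrangements reach at most 4.30% and 1.55%.

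Other motifs of the IFN-γ response and of enhancers were counted in the same way, either strand, and set beside the same windows 1 kb away. The ETS hexamer was in 40.7% of the flanking windows and at 85.2% of the sites, and the octamer in 1.39% and 11.1%. The octamer was more common in the IFN-γ-only distal peaks without the heptamer (14.2%, 13.3 to 15.0) than at the IFN-γ-only AP-1 sites. The pattern that IRFs bind, a pair of GAAA with 2 bases between, was at 5.21% (4.36 to 6.17) of the sites and 3.34% (2.86 to 3.89) of the flanking windows. The IFN-γ-only distal peaks without the heptamer held it in 11.4% (10.7 to 12.2). Some of these letters overlap the ETS core, since GGAA followed by A contains GAAA.

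The motif of TEAD factors, GGAATG, which contains the ETS core, was at 16.2% of the sites and 10.4% of the flanking windows, and at 16.1% of the IFN-γ-only distal peaks without the heptamer. The RUNX motif TGTGGTT was at 5.25% of the sites and 3.22% of the flanking windows, and the E-box CAGCTG at 10.8% and 7.73%. Neither was particular to the sites. The IFN-γ-only distal peaks without the heptamer held them in 5.23% and 8.56%, and the shared AP-1 peaks in 4.46% and 13.1%. The NF-κB motif was at 0.615% (0.345 to 1.01) and 0.472% (0.299 to 0.707) with overlapping intervals. The TATA-like word TATAAA was rarer at the sites, at 13.6% against 19.9%. These are matches of letters and not measured binding of any factor but Flag-FLI1.

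Part of the sites share sequence. A stretch of 30 bases or more, identical between sites, tied 164 sites (6.73%, 5.76 to 7.79) into 20 families, the largest of 41, 40, 17 and 17 sites. Of the family of 41 sites, spread over 16 chromosomes, 1 held a composite, and of the family of 40 on 17 chromosomes 0 did. One of the families of 17 held the composite at all 17 of its sites, which lay on 11 chromosomes with a median fold of 6.04. Its strongest windows are shown, on the strand that carries GGAA and with the capitals as above.
TRAM1L1, chr4:116396279-116396320, minus strand: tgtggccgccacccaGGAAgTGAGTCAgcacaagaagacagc
GRIK2, chr6:101302783-101302824, plus strand: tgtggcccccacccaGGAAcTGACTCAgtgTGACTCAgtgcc
EPB41L1, chr20:36080133-36080174, minus strand: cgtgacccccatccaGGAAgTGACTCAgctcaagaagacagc
GPC5, chr13:90002964-90003005, minus strand: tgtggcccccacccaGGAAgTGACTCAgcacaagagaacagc
C15orf39, chr15:75150218-75150259, plus strand: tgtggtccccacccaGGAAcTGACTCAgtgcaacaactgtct

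The composite was not confined to these families. Of the 268 sites with a composite, 26 belonged to one. With all family members left out, 9.92% of the heptamers were composites. A family needs 30 identical bases, so more diverged copies are not among these 26 and stay in the 9.92%. The MOGAT1 window above belonged to no family, yet it reads much like the family windows just shown. The wider element with CC before GGAA and G after the heptamer occurred 583 times in the genome, and 56 copies (9.61%) lay at an IFN-γ summit. Of these copies, 35 were in IFN-γ-only AP-1 sites, with 2656 heptamers, and 13 in shared distal AP-1 peaks, with 2583. They are included in the composite shares given above for these classes. The 3 contexts found most often ahead of the heptamer, which is in capitals, occurred at 25, 22 and 18 sites in this order.
First context: ggtttaatTGACTCA
Second context: ccaggaacTGACTCA
Next context: ctccacccTGACTCA
Reads from near-identical copies are hard to place, and the filter on mapping quality for these libraries is not given in the sources used here. The counts and intervals given here take each family member as a separate site, although members of a family share sequence.

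By nearest coding TSS the sites fell to 1960 of 20046 coding genes, 9.78%, of which 1589 had 1 site and 295 had 2. The most sites, 7, fell to GPC5, a cell surface heparan sulfate proteoglycan gene, with folds from 3.29 to 21.9 and distances from 57.1 to 1396 kb, and 3 of them lay inside the gene. TENM3, a teneurin adhesion protein gene, SUGCT, a mitochondrial CoA-transferase gene, MYC, the growth regulator, and RUNX1, a runt domain factor, had 5 each. All 5 sites of RUNX1 were in its introns, with folds from 3.83 to 7.0. Of the 5 assigned to MYC, 0 lay inside the gene. They were 92.5 to 927 kb away in introns of non-coding genes, with folds from 4.0 to 12.5. Genes in sparse regions collect more distant peaks under this rule.

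Genes of AP-1 itself and of pathways known to use it were read as lists. Of the 18 AP-1 subunit genes, 5 were nearest to a site (27.8%, 9.69 to 53.5), 4 to a shared distal AP-1 peak and 5 to an IFN-γ-only distal peak without the heptamer. Over all coding genes the shares for these 3 classes were 9.78%, 9.09% and 20.6%, which is the background for each list below. The strongest was in an intron of ATF7, with a fold of 9.69 and 43 fragments, 17.7 kb from its TSS, and its heptamer was centred 2 bp from the summit. BATF3 had a site 21.7 kb away with a fold of 6.08, and JUN had a site 105 kb away with a fold of 4.89. FOSL2 had 2 weaker sites.

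Among 23 genes of adhesion to the basement membrane, 12 were nearest to a site (52.2%, 30.6 to 73.2), 4 to a shared distal AP-1 peak and 12 to an IFN-γ-only distal peak without the heptamer. CD44, the hyaluronan receptor, had 3 sites, the strongest with a fold of 14.5 and 46 fragments, 60.8 kb from its TSS. ITGB6, an epithelial integrin subunit, had a site 7.28 kb away with a fold of 13.2. COL17A1, a hemidesmosome collagen, had one 7.88 kb away with a fold of 7.65. Of 25 invasion and wound response genes, 5 were nearest to a site (20%), 5 to a shared distal AP-1 peak and 10 (40%) to an IFN-γ-only distal peak without the heptamer. The protease inhibitor gene SERPINE2 had 3 sites, the strongest with a fold of 10.1. The matrix genes THBS1 and TNC had 2 and 4 sites, the strongest with folds of 6.61 and 6.41.

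The ERK pathway, which activates AP-1, had 12 of 24 genes nearest to a site (50%, 29.1 to 70.9), 10 nearest to a shared distal AP-1 peak and 15 nearest to an IFN-γ-only distal peak without the heptamer. AREG, an EGFR ligand, had a site 26.4 kb away with a fold of 7.76. EGFR itself had 3 sites, the strongest in its intron with a fold of 7.99. DUSP10, a phosphatase of MAP kinases, had 3 sites, the strongest with a fold of 5.95. Of 24 squamous lineage genes 7 were nearest to a site (29.2%), 3 to a shared distal AP-1 peak and 10 (41.7%) to an IFN-γ-only distal peak without the heptamer. SOX2 had a site with a fold of 13.0 at a distance of 394 kb, TFAP2A one with a fold of 7.05 at 883 kb, and KLF4 one with a fold of 5.92 at 221 kb. Of 26 YAP and TEAD targets 8 were nearest to a site (30.8%), 9 (34.6%) to a shared distal AP-1 peak and 15 (57.7%) to an IFN-γ-only distal peak without the heptamer. The strongest sites of this list were those of CRIM1, with a fold of 14.1 in its intron, DLC1, with a fold of 8.52, and TEAD1, with a fold of 7.49 and an ETS hexamer centred 0.5 bp from the summit.

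The list of IFN-γ response genes had the lowest share. Of its 40 genes, 3 were nearest to a site (7.5%, 1.57 to 20.4), close to the 9.78% of all coding genes. Of the same 40, 5 were nearest to a shared distal AP-1 peak and 15 (37.5%) to an IFN-γ-only distal peak without the heptamer. JAK1, a kinase of the IFN-γ receptor, had a site in its intron 13.9 kb from its TSS, with a fold of 9.25, 41 fragments over 3.54 and a composite at the summit, where the heptamer was centred 4 bp away. SOCS3, a feedback inhibitor of JAK kinases, had a site 50.9 kb away with a fold of 6.32. CIITA, the activator of MHC class II genes, had one 3.25 kb away with a fold of 5.51 and its heptamer 49 bp from the summit. The lists hold few genes, and the 95% intervals are wide.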

How the data were processed

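Flag ChIP-seq peak lists of HK1 cells overexpressing Flag-FLI1 were used, 1 per condition. The 2 input samples were not analysed here, and some planned items are not reported here. The authors used Cutadapt 1.18 for trimming, Bowtie2 2.3.4.1 for alignment against GRCh38, Picard to remove duplicates, and MACS2 2.1.2 to call peaks in each library. Use of the inputs in calling is not given in the sources used here. The deposited lists give each summit as a position, its fold enrichment, −log10 p and −log10 q, and a display score that was not used. The stated p-value cutoff for calling was 0.01, but the lowest deposited −log10 p values were 3.52 (control) and 3.46 (IFN-γ), and the filter behind this difference is not given in the sources used here.

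Pileups were solved from the deposited fold and −log10 p (largest relative error 6.21e-06). Control summits held a median of 16 fragments and IFN-γ summits 22. TSSs, introns and exons were from GENCODE 44 on GRCh38. Motifs were searched on both strands. The named sites were the 10 with the highest −log10 p, the 5 genes with the most sites, up to 3 genes a list, and the peaks nearest to each threshold. Sites, lists and motifs were chosen with earlier results of these data known. No test was run, since each condition had 1 library. Motif search, overlap and pileups were tested on simulated data. Alternatives covered q-value cutoffs, equal list lengths, overlap, distance, motif window, GGAA runs and shared sequence. Intervals used scipy 1.17.1 and numpy 2.4.6, sequences pysam 0.24.0, families networkx 3.6.1, tables pandas 2.3.3 and plots matplotlib 3.10.9, under Python 3.11.15.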

Additional observations from a re-analysis of the deposited data

How the results depend on the processing

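The number of IFN-γ-only AP-1 sites ran from 1635 to 2857 over 11 alternatives, within 1.5 times of 2438. With lists of equal length it was 1728. The share of IFN-γ-only distal peaks with the heptamer (26.2%) was 29.5% with q under 1e-05 in both lists, 30.1% with lists of equal length, 22.1% with GGAA runs kept, and 16.8% and 30.5% with motif windows of 50 and 150 bp. The share of sites with the heptamer within 25 bp (42.2%) was 45.9% with lists of equal length, and 63.1% and 36.7% with these windows. The median fold (5.55) was 6.46 with q under 1e-05, 6.60 with lists of equal length, 5.91 where sharing needed an overlap of 50% of each peak, and 5.91 and 5.48 with these windows. The ETS octamer (11.1%) was at 12.6% with lists of equal length. The composite (10.1% of heptamers) was at 11.4% with lists of equal length, and 13.9% and 8.74% with these windows. The remaining alternatives moved these values by less than their 95% intervals. The count of composites and the alternative without shared stretches were added after the data were seen. No paired analysis was possible because there was a single ChIP library a condition. At a median of 18 fragments, single sites are measured loosely.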
